A study of Mus musculus with 72 samples.

Results

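The mRNAs of 10 glycolytic enzymes were followed in mouse embryonic stem cells: Hk2, Gpi1, Pfkl, Aldoa, Tpi1, Gapdh, Pgam1, Eno1, Pkm and Ldha. They were chosen by gene symbol, as 1 enzyme for most steps from glucose to lactate, and are 10 of the 51826 genes with read counts. All 10 were measured in every library and passed every filter on low counts described here. The cells were wild-type E14TG2a, an embryonic stem cell line, grown in 2i medium with LIF and given 4-thiouridine (4sU), a uridine analog that is built into RNA made after its addition. They were then lysed stepwise with detergents into a cytosolic, a membrane and a nuclear fraction, with cycloheximide in the buffers, and an aliquot of the same suspension was kept as whole cells. The labeling lasted 15, 20 or 30 min in replicates 1 and 2. It lasted 20, 40 or 60 min in replicates 3 and 4, whereas replicates 5 and 6 were labeled for 60 or 120 min, so that labeling time and set of cultures are partly the same thing. All groups are of this 1 line. Per the labels, 4sU was given at 500 µM for 15 to 40 min and at 100 µM for 60 and 120 min. The methods of the paper give both doses at 60 min. In the cytosol at 60 min, the estimated rate of T-to-C conversion in new RNA was 5.83% and 7.57% in replicates 3 and 4. It was 2.38% and 2.58% in replicates 5 and 6. The dose of the 60 min libraries is therefore uncertain, and dose cannot be told apart from labeling time and culture set. The design gave 16 libraries per fraction. No library of unlabeled cells was used here.

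Glycolysis turns glucose into pyruvate, and lactate dehydrogenase turns pyruvate into lactate. Hexokinase and phosphofructokinase consume ATP in the upper part of the pathway, and the lower part, from glyceraldehyde phosphate dehydrogenase to pyruvate kinase, gives ATP back. Pluripotent cells are known for high glycolytic activity, and many of these enzymes have a family of isozymes with tissue-specific use. Most of these enzymes are soluble proteins made on free ribosomes, and glucose and lactate transporters are membrane proteins made at the endoplasmic reticulum. In a metabolic labeling experiment, the share of new RNA in a compartment rises with time, and rises faster where RNA is replaced faster.

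The 64 libraries held 15382522 to 52975732 counted reads each, without reads outside genes. The 7 stem cell markers had median whole-cell levels of 255.6 to 1200 CPM (reads of the gene scaled to 1e6 counted reads), whereas 8 of the 10 markers of fibroblasts, extraembryonic endoderm and trophoblast had medians under 1 CPM. The 3 neural markers were low but present, with medians of 3.78 to 5.53 CPM. The nuclear and the membrane fraction were each set apart from the cytosol by marker RNAs, but less from each other. The nuclear Kcnq1ot1 had a median of 99.5 CPM in the nucleus and 2.39 CPM in the cytosol, and Hspa5, made at the endoplasmic reticulum, 2097 CPM in the membrane fraction and 79.9 CPM in the cytosol. Against the cytosol, 2 of 3 nuclear markers were called higher in the nucleus (median log2 difference 2.28). In the membrane fraction 4 of 4 of its markers were called higher (5.73). All 4 membrane fraction markers were also called higher in the nucleus than in the cytosol (median log2 difference 2.42), and 2 of 3 nuclear markers higher in the membrane fraction than in the cytosol (median 1.45). The whole-cell libraries of replicate 6 went against their labels, since the share of new Hk2 RNA was 0.568 in the library labeled 60 min and 0.271 in the library labeled 120 min, against 0.296 and 0.561 in replicate 5. Whole-cell shares of replicate 6 are therefore not used as a time course below. Reads that map to several places were not counted, a class with a median of 25.4% of all that the counter classed per library. Of all 75-base words in the mRNA, 80.3% of Gapdh, 65.4% of Eno1 and 40.6% of Pgam1 also occur in another annotated gene, mostly processed copies, against 0% of Hk2 and Pfkl. The levels of Gapdh, Eno1 and Pgam1 relative to other genes are therefore uncertain. The median part of reads that map to several places was 21.8% in the nucleus, 25.7% in the cytosol and 31.6% in the membrane fraction. Whether these genes lose an equal part of their reads in each fraction was not tested.

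The 10 mRNAs together took a median of 0.701% of counts in whole cells, 0.678% in the nucleus, 0.967% in the cytosol and 0.588% at membranes. Their levels covered a wide range, which is given here per exon base and scaled to the same total in every library (TPM) for the comparison between genes. Gapdh, which oxidizes glyceraldehyde phosphate, was highest in whole cells, with 602 to 1941 TPM and a median of 1255 TPM over 16 libraries, rank 63 of 16212 genes. Aldoa, the aldolase that splits the sugar bisphosphate, had a median of 930 TPM, Pkm, which makes pyruvate and ATP, 782 TPM, and Eno1, the enolase, 424 TPM. Ldha had a median of 361 TPM, Pgam1, a phosphoglycerate mutase, 257 TPM, Gpi1, the glucose phosphate isomerase, 175 TPM, and Tpi1, the triose phosphate isomerase, 154 TPM. Hk2 (65.8 TPM) and Pfkl (25.0 TPM, rank 5127), which consume ATP, closed the order. Other isozymes of their steps are not part of it. The ranges of all 9 neighbours in this order overlapped. Within single libraries Gapdh was above Aldoa and Hk2 above Pfkl in 16 of 16. Aldoa exceeded Pkm in 3 of 6 libraries of replicates 1 and 2. It did so in 6 of 6 of replicates 3 and 4 and in 4 of 4 of replicates 5 and 6. Eno1 exceeded Ldha in 6 of 6 libraries of replicates 3 and 4 and in 0 of the 10 others, and Gpi1 exceeded Tpi1 in 6 of 6 libraries of replicates 3 and 4 and in 1 of the 10 others, so that these orders followed the culture set. They also depend on the length used, which is all annotated exon bases here. With the length of 1 transcript per gene, chosen after seeing the data, Eno1 was above Ldha and Gpi1 above Tpi1 in 16 of 16 libraries, and Gpi1 also moved above Pgam1 in 16 of 16. Aldoa was then above Pkm in 10 of 16 libraries and in 0 of 6 of replicates 1 and 2, and Hk2 above Pfkl in 15 of 16.

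**Figure D1:**
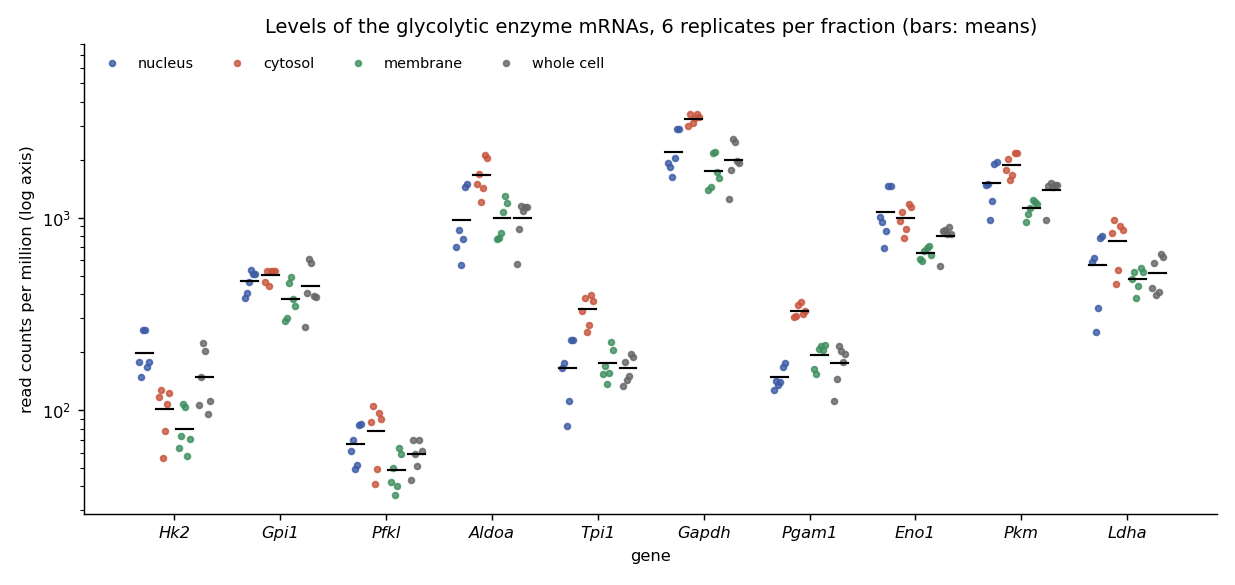
Level in CPM (log axis) of the 10 mRNAs in the nucleus, cytosol, membrane fraction and whole cells, with 1 point per replicate (labeling times summed) and a bar at the mean of 6 replicates. The nuclear values of Hk2 lie above all its cytosolic values, and those of Tpi1, Gapdh and Pgam1 lie below all of theirs.

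To see how the mRNAs are spread over the cell, nuclear levels were compared with cytosolic levels, with the counts of a replicate summed over its labeling times. Levels are relative to the RNA of the library, so that material from fewer cells and less RNA per cell cannot be told apart. Hk2, which phosphorylates glucose, was the exception among the enzymes. It had 149 to 262 CPM in the 6 nuclear samples, with a median of 178, and 56.2 to 127 CPM in the 6 cytosolic samples, with a median of 112. The 2 groups did not overlap, and the log2 difference was 0.63 ± 0.21 (SE, edgeR quasi-likelihood test, Benjamini-Hochberg adjusted p = 0.0106). Of the other 9 mRNAs, 7 were lower in the nucleus, against 28.1% of all 19040 tested genes called lower and 30.9% called higher. A call needed an adjusted p under 0.05 and a log2 difference over 0.5 in size. The median difference of the 10 was -0.71, beside -0.01 over all genes.

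The largest differences among the 10 were those of Pgam1 and Tpi1. Pgam1 had 127 to 176 CPM in the nucleus, median 140, and 303 to 365 CPM in the cytosol, median 322, a log2 difference of -1.53 ± 0.16 (edgeR, adjusted p = 1.4e-08). Tpi1 had 82.5 to 231 CPM and 254 to 397 CPM, a log2 difference of -1.34 ± 0.21 (edgeR, adjusted p = 5.7e-06). Neither gene's groups overlapped. Gapdh did not overlap either, with 1629 to 2893 CPM in the nucleus and 2982 to 3460 CPM in the cytosol and a log2 difference of -0.93 ± 0.18 (edgeR, adjusted p = 0.00011). Aldoa differed by -1.11 ± 0.23, Ldha by -0.74 ± 0.24 and Pkm by -0.67 ± 0.16, each lower in the nucleus in 6 of 6 replicates but with overlapping groups. Pfkl, the liver-type phosphofructokinase, passed the test with -0.54 ± 0.19 although it was lower in only 4 of 6 replicates. Gpi1 differed by -0.47 and Eno1 by -0.24, and neither was called.

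These differences depend on scaling and on culture set, and changes are best read against the median of all genes. The log2 difference of Hk2 was 0.17 in the cultures 1 and 2 alone, 1.70 in 3 and 4 alone and 0.55 in 5 and 6 alone. Without replicate 3 or replicate 4 Hk2 was no longer called (0.47 and 0.51). The median over the 10 genes was -0.82, -0.92 and -0.18 within the 3 sets, beside medians over all genes of 0.02, 0.47 and 0.13. Fits without replicate 1 or replicate 2, or without a filter on low counts, shifted the median of all genes to between 0.27 and 0.46 and left 4 of the 10 genes called lower, namely Aldoa, Tpi1, Gapdh and Pgam1. The sign of Eno1 turned in these fits (0.02 to 0.12).

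Between the membrane and the cytosolic fraction most of the enzymes were lower at membranes in CPM, and few passed the test. In CPM 8 of the 10 were lower in 6 of 6 replicates, and for 5 of them (Tpi1, Gapdh, Pgam1, Eno1 and Pkm) the groups did not overlap. The share of all genes with this pattern in CPM was not counted, so these counts show nothing particular to the enzymes. Tpi1 (-0.61 ± 0.21, edgeR, adjusted p = 0.0227) and Gapdh (-0.61 ± 0.18, adjusted p = 0.0102) were lower in the membrane fraction, which is 2 of 10 beside 8.87% of all 19040 genes called lower and 21.1% called higher. Tpi1 had 136 to 225 CPM in the membrane fraction and Gapdh had 1388 to 2194 CPM, in both cases below all cytosolic samples. The fitted differences are smaller than the ratios of CPM, since the fit uses TMM-scaled library sizes and CPM uses all counted reads. None of the 10 was called higher. Without replicate 5, Pgam1 (-0.64) and Pkm (-0.55) were also called, and without replicate 2 or 4 Tpi1 was not. Without a filter on low counts only Tpi1 was called. Hk2 had no stable direction, with -0.17, 0.78 and -0.60 within the 3 culture sets and -0.02 in all.

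Other genes of the pathway gave a frame for these values. Of 16 further isozymes and steps, 12 were tested, of which 4 were lower and 1 was higher in the nucleus than in the cytosol, beside the 28.1% and 30.9% of all genes given above, and 0 were called between membrane and cytosol at the stated threshold. Among the highest isozymes of each step per length, Pgk1, which makes ATP from bisphosphoglycerate, had a log2 difference between nucleus and cytosol of -0.80 and was called lower. Ldhb, the heart-type lactate dehydrogenase subunit, was called lower with -0.89, and Pgam2, the muscle-type mutase, with -1.21. Hk1 (-0.21), Pfkm (-0.10), Aldoc (-0.72), Eno3 (0.01) and Pklr (-0.55) were not called. The transport genes differed from the enzymes in the membrane fraction. Of 7 tested, 5 were higher there than in the cytosol, among them the glucose transporters Slc2a1 (log2 difference 4.83) and Slc2a3 (4.60) and the lactate transporter Slc16a1 (4.78). Neither subunit of the mitochondrial pyruvate carrier was called there (Mpc1 -0.11, Mpc2 0.43). Between nucleus and cytosol 5 of the 7 were higher and 2, Mpc1 (-0.94) and Mpc2 (-1.21), were lower in the nucleus. The 4 membrane fraction markers rose there with the transporters, as given above, and their part in this was not tested. Of 15 flux regulators and branch enzymes, 8 were lower and 2 higher in the nucleus than in the cytosol, and 3 were lower in the membrane fraction: Bpgm (-0.59), G6pdx (-0.53), the entry enzyme of the pentose phosphate pathway, and Hif1a (-0.66), a transcription factor known to activate glycolytic genes.

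Labeled RNA was read from T-to-C (T2C) mutations. The share of new RNA is the T2C count over the T count, divided by the conversion rate of the library. It can exceed 1, since the conversion rate is an estimate, and no background was subtracted. As a floor, the 1st percentile of the share over well-covered genes was between 0.0034 and 0.0066 at 15 min and between 0.0323 and 0.102 at 120 min. The T2C count over the T count at this percentile rose with labeling time, from 0.0093% at 15 min in replicate 1 to 0.221% at 120 min in replicate 5 in the cytosol, so that the floor is not a constant sequencing error and sets only a lower end of the scale. Several values of the 9 slower mRNAs lie near or below it. Since the floor is a low percentile of the shares of genes, the slowest genes lie below it by construction, and it is not a detection limit. Subtracting it can remove new RNA as well as background.

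Introns, which stand for pre-mRNA, were replaced within minutes for most of the enzymes. Gapdh introns in the nucleus had shares of 0.640 and 0.629 in the 2 libraries of 15 min, above 99.0% of genes, and of 0.811 to 0.990 in the 4 libraries of 20 min. Pgam1 introns had 0.641 and 0.493, Ldha introns 0.511 and 0.414, and Hk2 introns 0.411 and 0.443 at 15 min, where the median gene had 0.136. These 4 genes were the fastest of the 10. Tpi1 (0.406 and 0.358), Eno1 (0.319 and 0.282), Aldoa (0.293 and 0.288) and Pkm (0.263 and 0.212) followed, all above the median gene. Gpi1 and Pfkl were slow. The introns of Gpi1 had shares of only 0.0346 and 0.0254 at 15 min, above 3.94% of genes, of 0.333 and 0.335 at 40 min and of 0.850 and 0.819 at 120 min, where the median gene had 0.940. The introns of Pfkl had 0.0447 and 0.0476 at 15 min and 0.563 and 0.363 at 40 min.

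The intron share was higher than the exon share in the nucleus for 10 of 10 genes (limma on log2 ratios within replicates), as it was for 97.5% of the 10380 genes tested (0.125% were lower), so that the direction says little about these enzymes and the size is what varies. The log2 ratio was 4.25 ± 0.17 for Gapdh (adjusted p = 2.2e-07), above 99.3% of genes, 3.83 ± 0.17 for Pgam1, 3.74 ± 0.14 for Eno1 and 3.63 ± 0.22 for Ldha. It was 2.04 ± 0.21 for Hk2 (limma, adjusted p = 1.1e-05), near the median over all genes of 1.85. The median of the 10 was 3.00. In single libraries the intron share of Gapdh was 9.98 to 45.3 times the exon share, and that of Hk2 1.55 to 8.32 times.

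Gpi1 also carried more intron sequence than the other enzymes. Introns held 12.2% to 49.5% of its exon and intron T counts in the 16 nuclear libraries, with a median of 35.5%, beside a median of 31.2% over 10380 genes. For the other 9 mRNAs the medians were between 4.41% (Tpi1) and 12.6% (Pkm), with 1.36% and 11.2% of genes below them. In the cytosol the intron part of Gpi1 fell to a median of 4.12%, and that of the other 9 was between 0.508% (Aldoa) and 2.12% (Hk2).

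**Figure D2:**
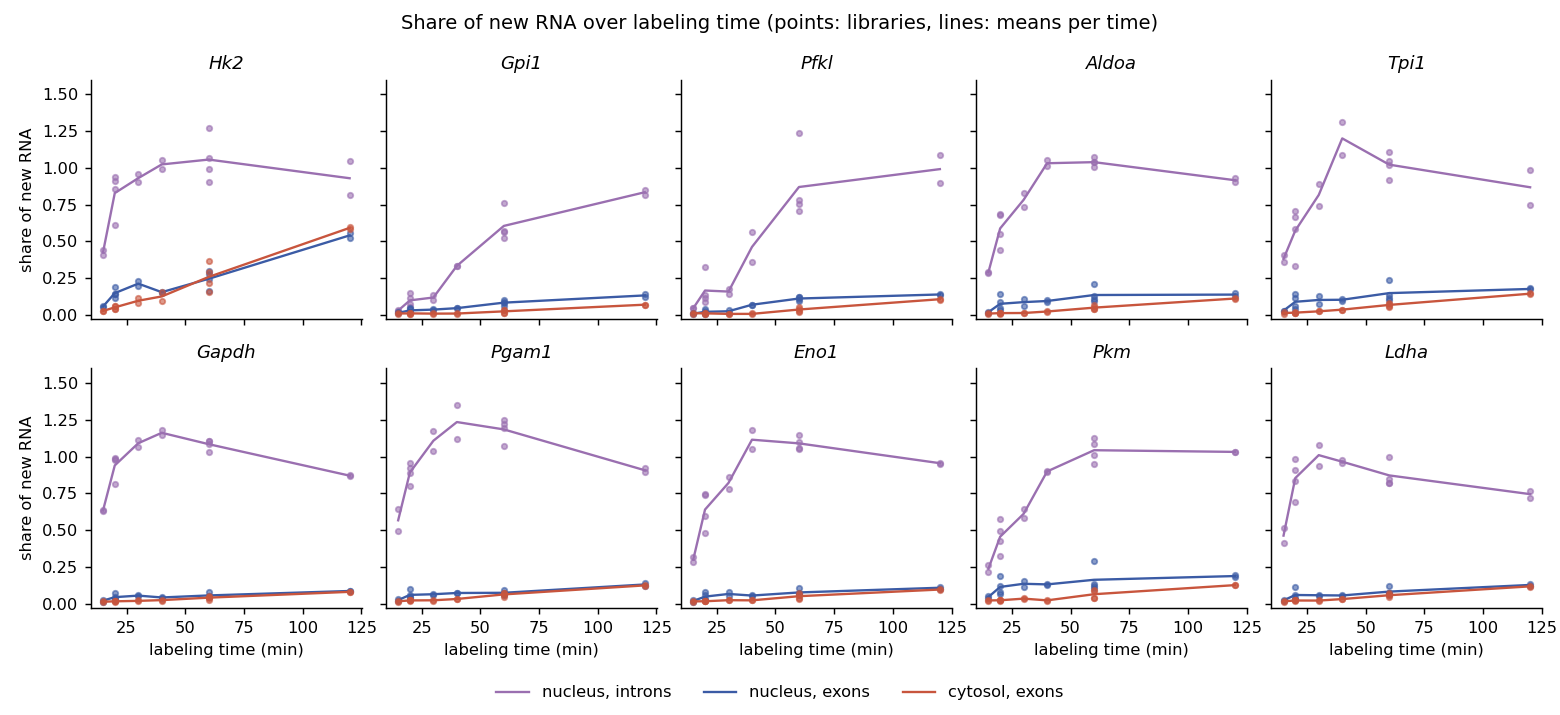
Share of new RNA against labeling time (min) for the 10 genes, with nuclear introns, nuclear exons and cytosolic exons in different colors; points are libraries and lines join the means per labeling time. Introns of Gapdh, Pgam1, Ldha and Hk2 pass 0.6 by 20 min in every library, introns of Gpi1 stay at 0.335 or below until 40 min, and exons of Hk2 are the only ones above 0.5 at 120 min.

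In exons, which are mostly mature RNA, Hk2 was fast beside the other 9 enzymes, which were slow. The exon share of Hk2 in the nucleus was 0.0620 and 0.0533 at 15 min, where the median gene had 0.0276. At 60 min in replicates 5 and 6 it was 0.278 and 0.242, where the median gene had 0.247. At 120 min it was 0.557 and 0.526, where the median gene had 0.443. In the cytosol Hk2 reached 0.598 and 0.587 at 120 min, above 74.0% of genes. The other 9 enzymes had nuclear exon shares of 0.0854 to 0.197 and cytosolic shares of 0.0689 to 0.148 at 120 min. Gapdh was the slowest in the nucleus, with 0.0867 and 0.0854 at 120 min, above 0.637% of genes. As so low a rank implies, this was below the floor of the same libraries (0.0950 and 0.0904). Gpi1 was the slowest in the cytosol, with 0.0711 and 0.0689, above 1.31% of genes and close to the floor (0.0677 and 0.0647). Pkm (0.197 and 0.179) and Tpi1 (0.173 and 0.181) had the highest nuclear shares of the 9 at this time.

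The nuclear share exceeded the cytosolic share for 9 of the 10 genes in the test over 6 replicates, beside 62.3% of 11865 genes called higher and 0.75% called lower. The log2 ratio was 1.56 ± 0.34 for Aldoa (limma, adjusted p = 0.0023), 1.55 ± 0.34 for Pkm, 1.48 ± 0.30 for Gpi1 and 1.32 ± 0.32 for Tpi1, above the median of all genes of 0.94. It was 0.73 for Pgam1 and Ldha and 0.77 for Gapdh, with adjusted p of 0.0423, 0.0420 and 0.0333, and these 3 calls are near the threshold. Hk2 was not called (0.52 ± 0.31, limma, adjusted p = 0.139). In the cultures labeled longest, replicates 5 and 6, the log2 ratio ran from -0.20 for Hk2 to 0.97 for Gpi1, beside a median over all genes of 0.19. For 9 of the 10 this was below the ratio in both other sets, and Pfkl was the exception, with 0.51 in replicates 1 and 2 and 0.62 in replicates 5 and 6. The medians of the 10 were 1.17 and 1.62 in the other sets, beside 1.14 and 1.43 over all genes. In replicates 5 and 6 Hk2 had a cytosolic share of 0.365 and 0.294 at 60 min, above its nuclear 0.278 and 0.242. The sets also differed at equal labeling time. At 60 min the median cytosolic share over genes was 0.0955 in replicates 3 and 4 and 0.195 in replicates 5 and 6. The median nuclear share was 0.240 and 0.247. The parts of labeling time, culture set and dose in these ratios were not tested. Without pairing the fractions of a culture, 0 of the 10 and 0 of all genes were called by limma, and 933 genes had an unadjusted p under 0.05. With the floor subtracted, 4 genes remained called, namely Gpi1, Aldoa, Tpi1 and Pkm, and Gapdh had -0.09. Without replicate 4 also 4 genes were called, and without replicate 2 or 3, 5 genes. Between membrane and cytosol 0 of the 10 shares were called, with log2 ratios from -0.23 (Ldha) to 0.21 (Pkm), beside 0.649% of 11864 genes called higher and 8.02% called lower.

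A model of 3 steps in series was fitted to the mean shares, in which pre-mRNA is processed, mature RNA leaves the nucleus, and cytosolic RNA is lost. Unlike in the study, the levels in the fractions did not constrain the rates. The half-lives are set beside these levels only for Gapdh, Pgam1, Eno1 and Ldha, below. The fit used shares of whole genes, without a delay by distance from the 3′ end. The paper states that without such a correction flow rates are underestimated, which here concerns the longer genes Hk2, Gpi1, Pfkl and Pkm. The model covered 9940 genes, and the ranges given are those over fits that leave out 1 replicate. The pre-mRNA half-life was shortest for Gapdh (5.05 min, range 4.83 to 5.14), followed by Pgam1 (5.53 min), Ldha (7.58 min), Hk2 (8.12 min), Eno1 (10.5 min), Tpi1 (11.0 min), Aldoa (11.6 min) and Pkm (15.5 min). All these were below the median gene at 24.5 min. Pfkl (46.9 min, range 40.7 to 53.5) and Gpi1 (55.2 min, range 54.5 to 58.2) were above it. Their order is not firm, since with a smallest standard error of 0.02 in place of 0.06 Pfkl had 75.3 min and Gpi1 60.4 min. The nuclear half-life of mature RNA followed another order. It was 85.3 min (range 82.6 to 88.3) for Hk2, near the median gene at 73.2 min, 216 min for Gpi1 and Pfkl, 220 min for Pkm, 268 min for Tpi1 and 326 min for Aldoa. The ranges over replicates understate the uncertainty of these values. With the floor subtracted Gpi1 had 641 min, Pfkl 561 min, Pkm 384 min, Tpi1 509 min and Aldoa the upper limit, and with the smaller standard error Pfkl had 152 min. Pgam1 (483 min), Ldha (486 min) and Eno1 (542 min, range 497 to 557) lay far beyond the longest labeling time of 120 min, and Gapdh stood at the upper limit of the fit, 693 min. Values beyond the labeling time rest on small shares near the floor, and only a slow replacement can be read from them. At 60 min the fit averaged libraries of both culture sets. The median cytosolic share over genes was then 0.0955 in replicates 3 and 4 and 0.195 in replicates 5 and 6. No fit left out a whole set, so the ranges do not cover this difference. The cytosolic half-life measures here how far the cytosolic share trails the nuclear one. It was 39.2 min for Gpi1, 37.2 min for Pkm, 27.2 min for Aldoa, 21.3 min for Tpi1 and 20.5 min for Pfkl. With the floor subtracted it was 321 min for Gpi1. For the other 5 no value can be given: leaving out 1 replicate moved Hk2 between 0.739 and 3.64 min, Gapdh between 1.93 and 6.77 min, Pgam1 up to 5.45 min, Ldha up to 5.74 min and Eno1 up to 7.49 min. Pgam1, Eno1 and Ldha also reached the lower limit of 0.347 min. With the floor subtracted Gapdh had 171 min, Eno1 64.3 min, Ldha 27.5 min and Pgam1 19.8 min. At steady state this model sets the nuclear over the cytosolic amount equal to the ratio of the half-lives. Without subtraction these 4 genes had 483 to 693 min in the nucleus and 1.76 to 4.94 min in the cytosol. None was called higher in the nucleus (log2 differences -1.53 to -0.24). The paper estimates more mRNA in the nucleus than in the cytosol, but by far too little to close this gap. These half-lives thus do not match the levels.

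Exon shares were then placed along the longer genes. RNA polymerase reaches the 3′ end last, and reads with 4sU appear first near that end when the RNA was partly transcribed before labeling. In Hk2, which spans 49.4 kb on chromosome 6 (82725025 to 82774454, minus strand, GRCm38), exons within 5 kb of the 3′ end had nuclear shares of 0.0767 and 0.0597 at 15 min. Exons more than 10 kb from it had 0.0168 and 0.0308. The far-to-near ratio was 0.349 at 15 min, 0.167 at 20 min and 0.408 at 30 min in replicates 1 and 2. In replicates 3 and 4 it was 0.360 at 20 min, 0.828 at 40 min and 0.879 at 60 min. In replicates 5 and 6 it was 0.713 at 60 min and 1.03 at 120 min. The rise was thus not steady, and part of it lies between culture sets. The far exons were lower in 15 of 16 nuclear libraries. Pfkl (chromosome 10, 77986947 to 78010083, minus strand) went the same way, from 0.658 at 15 min and 0.166 at 30 min to 1.01 at 120 min, but with few T counts and far shares at 0 in 4 of 16 libraries.

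In Gpi1 (chromosome 7, 34201330 to 34230336, minus strand, 29.0 kb) the ratio stayed low throughout. Near exons had nuclear shares of 0.184 and 0.151 at 120 min and far exons 0.0741 and 0.0666, a ratio of 0.420. Far exons were lower in 16 of 16 nuclear and 14 of 16 cytosolic libraries. In Pkm (chromosome 9, 59656368 to 59679375, plus strand, 23.0 kb) the ratio rose from 0.240 at 15 min to 0.697 at 120 min, with far exons lower in 16 of 16 nuclear and 16 of 16 cytosolic libraries. At 120 min the far-to-near ratio thus lay near 1 in Hk2 and Pfkl and below 1 in Gpi1 and Pkm, in both libraries of each gene.

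**Figure D3:**
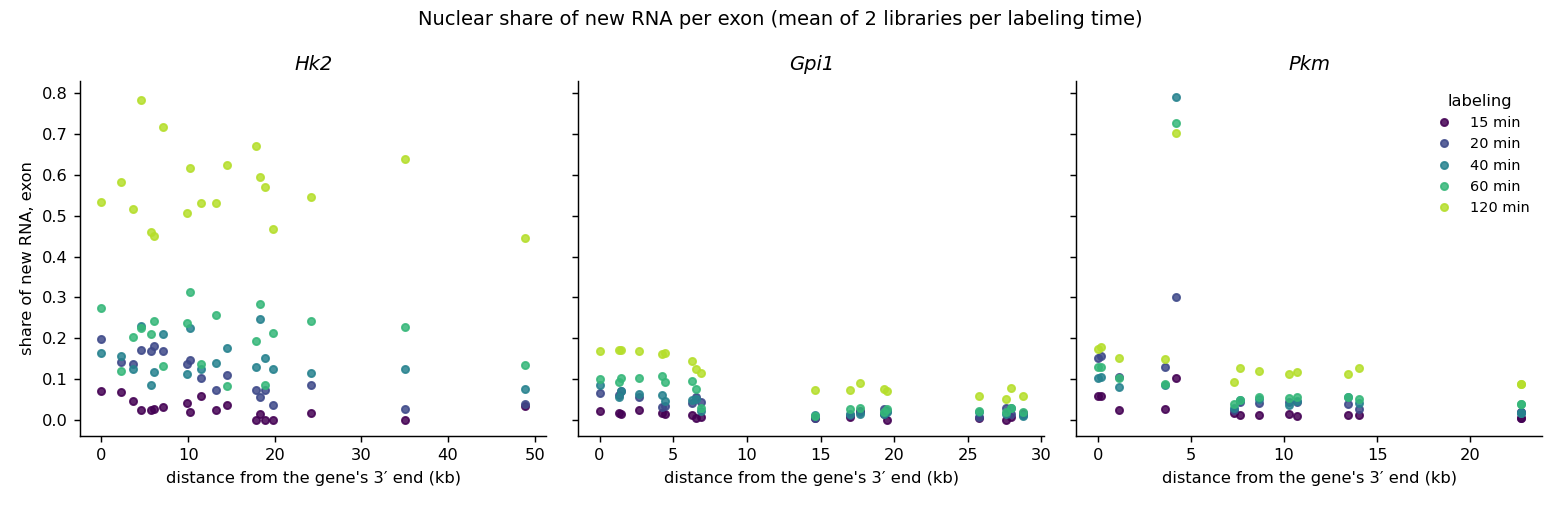
Nuclear share of new RNA of single exons of Hk2, Gpi1 and Pkm against their distance from the 3′ end of the gene (kb), each point the mean of 2 libraries, colored by labeling time (15 min from replicates 1 and 2, 20 and 40 min from replicates 3 and 4, 60 and 120 min from replicates 5 and 6). At 120 min exons of Hk2 scatter around the same share near and far from the end (ratio 1.03), exons of Gpi1 remain lower far from it (ratio 0.420), and the exon of Pkm that stands above its neighbours is M1.

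Pkm has a pair of mutually exclusive exons, called M1 and M2 after the isoforms they define. M1 is the form of muscle and brain, and M2 that of embryonic and dividing cells. Both exons are 167 bases long, and each is exon 9 of its transcript (Pkm-202 and Pkm-201). M1 lies on chromosome 9 at 59675029 to 59675195 and M2 at 59675568 to 59675734, plus strand, GRCm38. Their sequences are shown because the 2 exons compete for the same place in the mRNA and the choice sets the isoform. Capitals mark the 64 of 167 positions at which they differ (61.7% identical).
M1: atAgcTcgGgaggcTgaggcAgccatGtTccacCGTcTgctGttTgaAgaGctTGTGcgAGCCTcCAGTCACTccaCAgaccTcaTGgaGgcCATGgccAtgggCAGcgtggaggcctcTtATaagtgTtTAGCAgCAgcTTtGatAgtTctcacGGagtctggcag
M2: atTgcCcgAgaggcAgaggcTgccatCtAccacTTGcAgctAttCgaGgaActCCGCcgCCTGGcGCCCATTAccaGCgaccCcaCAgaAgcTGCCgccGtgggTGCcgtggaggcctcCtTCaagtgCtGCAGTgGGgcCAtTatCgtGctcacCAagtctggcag
M1 holds 40 T positions and M2 holds 31, and usage is given per T position. M1 made up 5.30% to 14.5% of M1 and M2 together in the nucleus (10.4% ± 4.1, SD, n = 6), and 1.82% to 5.21% in the cytosol (3.24% ± 1.31). In the membrane fraction it made up 3.83% ± 1.04. The whole-cell value was 7.65% ± 3.79. The nuclear value was above the cytosolic value in 6 of 6 replicates, and the groups did not overlap, although the lowest nuclear value (5.30%, replicate 6) and the highest cytosolic value (5.21%, replicate 1) were close. In replicate 5 it was 5.40% in the nucleus and 3.08% in the cytosol. Counts of an exon include unspliced RNA, which cannot be told apart from spliced M1 RNA in these files.

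Sequence of the M1 exon also came from newer RNA than that of the M2 exon, with unspliced RNA included as stated above. In the nucleus the M1 share was 0.110 and 0.0951 at 15 min, 0.312 and 0.384 at 30 min, and 0.798 and 0.784 at 40 min. The M2 share at these times was 0.0285 and 0.0232, 0.0627 and 0.101, and 0.0795 and 0.0923. M1 was above M2 in 16 of 16 libraries of every fraction, including the cytosol, where the M1 share was 0.631 and 0.579 and the M2 share 0.127 and 0.114 at 120 min. The nuclear introns of Pkm, with 0.900 and 0.898 at 40 min, were above both exons.

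**Figure D4:**
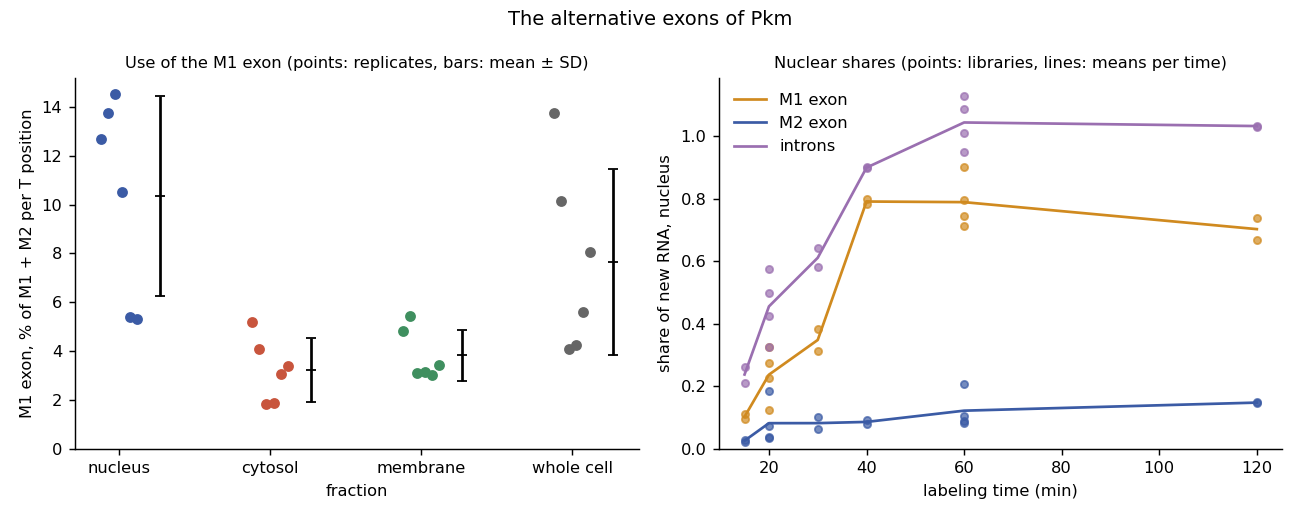
Left, the M1 exon as percent of M1 and M2 counts per T position of Pkm in each fraction, with 1 point per replicate and the mean ± SD of 6; right, nuclear share of new RNA of the M1 exon, the M2 exon and the introns against labeling time (min), with points for libraries and lines for means per time. Every nuclear M1 percentage lies above that of the cytosol, and M1 shares lie between those of introns and M2.

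Eno1 had a comparable stretch. A long form of an exon (chromosome 4, 150243486 to 150244074, plus strand, 589 bases) contains a short form of 70 bases at its 3′ end, and the T counts of the 519 bases between their starts were taken as the difference of both. The share of this extra stretch in the nucleus was 0.120 and 0.182 at 15 min and 1.14 and 0.863 at 40 min. The short exon had 0.00872 and 0.0149 at 15 min and 0.0553 and 0.0484 at 40 min. The long form was above the short form in 16 of 16 nuclear and 16 of 16 cytosolic libraries. The stretch had 3353 to 21926 T counts in the nucleus but as few as 112 in the cytosol, where its share is uncertain. Whether the stretch belongs to unspliced RNA cannot be told from exon counts.

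At 20 min, the only labeling time that replicates 1 and 2 shared with another culture set, replicates 3 and 4 were compared with replicates 1 and 2. The remaining culture set shared 60 min with replicates 3 and 4, and levels at 60 min were not tested between these sets. In whole cells 3 of the 10 genes were higher in replicates 3 and 4 and 0 were lower, beside 10.4% of 16858 genes called higher and 11.9% called lower. Marker RNAs moved too, with 5 of 7 stem cell markers higher (median log2 difference 0.59), 3 of 4 membrane fraction markers lower (-0.86) and 1 of 3 nuclear markers lower (-0.63), and their part in the result was not tested. Hk2 had 232 and 202 CPM against 100 and 151 CPM (log2 difference 0.84 ± 0.18, edgeR, adjusted p = 0.0034). Gpi1 had 588 and 495 CPM against 287 and 378 CPM (0.75 ± 0.22, adjusted p = 0.0206, edgeR), and Pgam1 had 213 and 187 CPM against 112 and 147 CPM (0.67 ± 0.15, adjusted p = 0.0046, edgeR). These groups did not overlap. Gapdh showed 2436 and 2082 CPM against 1450 and 1569 CPM and was not called by edgeR (0.62 ± 0.23, adjusted p = 0.0616), though DESeq2 called it (0.0344). Without replicate 3, 0 of the 10 genes were called, and without replicate 4 only Hk2.

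The same comparison inside the fractions, added after the data were seen, gave other genes. In the nucleus 4 genes were lower in replicates 3 and 4, beside 7.16% of 17810 genes called lower and 5.74% called higher. Ldha had 183 and 284 CPM against 563 and 589 CPM, a log2 difference of -1.39 ± 0.29 (edgeR, adjusted p = 0.0053). Tpi1 differed by -1.11 ± 0.28, Pkm by -0.83 ± 0.27 and Pfkl by -0.58 ± 0.16. In the cytosol 3 genes were lower, beside 21.3% of 16284 genes called lower and 18.1% called higher. They were Hk2 (-0.63 ± 0.22), Pfkl (-0.81 ± 0.15) and Ldha (-0.63 ± 0.12). Hk2 had 56.9 and 73.3 CPM against 115 and 125 CPM there, so that its cytosolic level was lower and its whole-cell level higher in the same cultures. In the membrane fraction only Ldha was called lower (-0.50 ± 0.17), beside 14.4% of 16202 genes called lower and 9.12% called higher. The 4 membrane fraction markers were all called lower there (median -0.90), and their part was not tested. Without replicate 1, 0 genes were called in the nucleus or the membrane fraction.

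**Figure D5:**
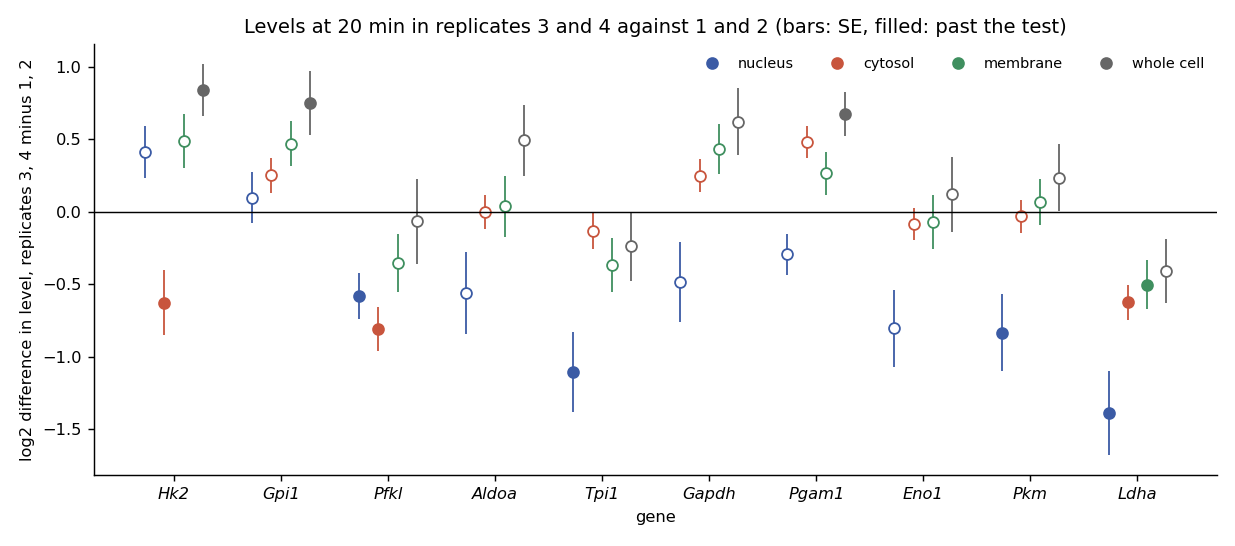
Log2 difference in level between replicates 3 and 4 and replicates 1 and 2 at 20 min for the 10 genes in the nucleus, cytosol, membrane fraction and whole cells, with bars for the SE; filled points passed the test. Hk2 is higher in whole cells (0.84) and lower in the cytosol (-0.63), and Ldha is below 0 in all 4 fractions.

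Longer labeling went with no called change in level of the enzymes. In whole cells 0 of the 10 genes and 0 of 16858 genes were called by edgeR at 30 against 15 min, 40 against 20 min, 60 against 20 min or 120 against 60 min (percent called 0.0). At an unadjusted p under 0.05 there were 251, 1172, 747 and 123 genes in these comparisons, and DESeq2 called 0, 1, 0 and 0 genes. Without a filter on low counts edgeR called 0, 1, 9 and 1 of 31434 genes higher and 6, 65, 33 and 48 lower, and 0 of the 10 enzymes. These groups have 2 libraries each, and replicate 6 enters the last comparison.

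Across the 16 whole-cell libraries the levels of most of the enzymes moved together. The correlation of log2 CPM with the mean of the other 9 was 0.99 for Pkm, 0.97 for Eno1, 0.95 for Aldoa and 0.87 for Gapdh, and 0.29 for Hk2 and 0.27 for Ldha. The low value of Ldha arose between culture sets, since within the 3 sets it was 0.97, 0.77 and 0.74. The genes most like the mean of the 10 among 11770 compared were Msto1 (0.96), Gss (0.96), Prkcz (0.95), Gatd1 (0.95) and Acadvl (0.94). Libraries of 1 replicate share their culture, so that these values describe 6 cultures and their depth and composition. Within replicates 5 and 6 Gss (-0.54), Prkcz (-0.48) and Acadvl (-0.72) went against the enzymes, while Msto1 (0.80) and Gatd1 (0.85) did not. In these 4 libraries Pgam1 (-0.76) and Hk2 (-0.44) also went against the other enzymes, and Eno1 had 0.21.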

How the data were processed

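Poly(A)-selected RNA of 72 libraries was measured by paired-end stranded sequencing after alkylation of 4sU. Per the labels and methods, the authors aligned reads to mm10 (GRCm38) with STAR 2.7.6 and deposited raw read counts per gene made with HTSeq 0.11.1. For exons, genes and introns, the authors deposited T counts and T2C counts, without known variants, and a conversion rate per library, a fraction from a binomial mixture. Their deposited ratio, the share of new RNA, is T2C over T over this rate. Recomputed from the counts it differed by at most 2.4e-13. Reads that mapped to several places, were ambiguous or met no gene stayed out of library sizes (medians over 64 libraries of 25.4%, 1.13% and 10.4% of all that the counter classed). No molecular identifiers were used, and spread between replicates is given in place of counting intervals.

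Groups came from the labels. The 8 libraries of 120 min of replicates 3 and 4 were set aside, as in the study, which left 64. Labels and methods differ on the 4sU dose of some 60 min libraries, so doses were not compared. Levels were tested with edgeR 4.0.16 (R 4.3.3, filterByExpr, TMM, quasi-likelihood test) on 24 sums of counts, 1 per replicate and fraction, or, between culture sets and labeling times, on the 18 libraries of 1 fraction, since these fits kept the 2 set-aside libraries of 120 min as a group of their own that adds to the estimate of the spread. Share ratios were tested with limma 3.58.1 on log2 ratios within a replicate (pseudocount 0.001, at least 400 T counts in every library), with calls at an adjusted p under 0.05. All p-values were adjusted over all genes (Benjamini-Hochberg), and DESeq2 1.42.0 was an alternative. Half-lives were fitted by bounded least squares (delay 5 min, smallest standard error 0.06). Fits were tested on simulated data. Same-numbered fractions come from 1 culture, and deviations from the fraction means correlated over 0.1 in 33 of 36 pairs of same-numbered samples (lowest -0.19, cytosol and whole cells of replicate 6). No 2 libraries of a group agreed within sampling noise (lowest chi-square per degree of freedom 4.57 over 64 pairs). Replicates were independently passaged cultures of 1 line. In the tests on sums and on share ratios, p-values measure spread between cultures, which also differ in labeling time. The fits on single libraries had no replicate block and took libraries of 1 replicate at several labeling times as independent. Their p-values therefore do not measure spread between cultures alone, and each set has only 2 cultures. Named genes were the 10 enzymes, the highest isozyme per length of each step and the 5 genes with the highest correlation. The transport and flux genes named beside list counts outside this rule were chosen after their values were seen. The enzymes and lists were chosen with earlier results of these data known.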

Additional observations from a re-analysis of the deposited data

Results flagged for a closer look

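Of 154 groups of 4 or 6 samples, 7 held a sample that stood apart from the others by Dixon's test at the 95% level, where chance alone gives about 1 in 20 groups. The whole-cell level in replicate 1 was the lowest of 6 for Eno1 (559.57 CPM, the nearest being 821.07) and for Pkm (970.04 CPM, the nearest being 1435.4). At 60 min in the nucleus, replicate 3 had the highest of 4 exon shares for Pkm (0.2883, the nearest being 0.13202) and for Ldha (0.12047, the nearest being 0.073749). At 20 min in whole cells, the exon share of Eno1 was highest in replicate 1 (0.024875, the nearest being 0.019767). At 20 min in the nucleus, the intron share of Gapdh was lowest in replicate 1 (0.81142, the nearest being 0.97497). At 60 min in the nucleus, the intron share of Pfkl was highest in replicate 5 (1.2381, the nearest being 0.78273).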

How the results depend on the processing

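Of the counts and summary values recomputed under the alternatives, 121 stayed within the stated limits and 28 moved. Among values of single genes, 19 changed sign and 69 lost their call. Between nucleus and cytosol 7 genes were called lower, and 4 without a filter on low counts, 4 with 64 single libraries, and 4 to 8 with 1 replicate left out. The log2 difference of Eno1 was then 0.12, 0.068 and -0.33 to 0.083. The 2 membrane calls became 1 without a filter on low counts and 1 to 4 with 1 replicate left out. Hk2 there had 0.043 without the filter, 0.026 with 64 libraries and -0.18 to 0.066 with 1 replicate left out. For nuclear against cytosolic shares, 9 calls became 0 without the replicate block, 4 with the floor subtracted (Gapdh -0.088) and 4 to 9 with 1 replicate left out. Adding the replicate block to the fits of levels changed no call of the 10 genes between nucleus and cytosol or membrane and cytosol. For membrane against cytosolic shares, Pfkl had -0.011 with a pseudocount of 0.01, -0.080 with the floor subtracted and -0.064 to 0.096 with 1 replicate left out, and Hk2 -0.14 to 0.012 with 1 replicate left out, none of them called. At 20 min, 3 whole-cell calls became 0 to 4 with 1 replicate left out, where Pfkl had -0.28 to 0.13, 4 nuclear calls became 0 to 7, and 1 membrane call became 0 or 1. The median pre-mRNA half-life of the 10 genes was 10.8 min, 13.9 min with no delay and 12.1 min with a smallest standard error of 0.02. The nuclear median was 297 min, 325 min with that error and 667 min with the floor subtracted, and the cytosolic median 12.7, 8.93 and 30.9 min. M1 use in the membrane fraction was 4.88% per base. At least 2000 T counts per exon left no far exons of Hk2, so this alternative gave no value. The comparisons within fractions at 20 min, the separate values of replicate 6, and the order of levels by transcript length, were chosen after seeing the data. Except where an alternative's own construction shows it, the cause was not tested.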
